A study of Oryza sativa with 6 samples.

Results

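Roots of the rice cultivar Nipponbare, a japonica variety and the reference genome line of the species, were compared between plants deprived of phosphorus and plants supplied with it, over the 6 Nipponbare samples among the 12 root samples of the study. Members were chosen by line: the Nipponbare channel of each of the 6 arrays was taken, 3 control and 3 P-def, and the channel of the other line, 6-4, was set aside. The controls grew in 12 L pots of Andosol, a volcanic ash soil, high in phosphorus, and the P-def plants in the same kind of pot and soil with no phosphorus. RNA came from 1.6 g of root tissue in each sample, and the labels give neither plant age nor the number of plants pooled. The line 6-4, which shared each array with Nipponbare, is a near-isogenic line with inserts from the indica cultivar Kasalath. The design text calls the 3 samples of a group biological replicates.

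Phosphate is taken up by proton-coupled transporters of the PHT1 family in the root and loaded into the xylem by PHO1. Plants short of phosphate secrete acid phosphatases and nucleases that release it from organic compounds, and exchange membrane phospholipids for galactolipids and sulfolipids that hold no phosphorus. Proteins with an SPX domain sense the phosphate status of the cell and hold back the transcription factors that switch these genes on. Soil such as Andosol binds phosphate strongly, so that little of it is free for the root.

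Each array held 21495 rice probes in 2 colours, and 19603 probes were tested for Nipponbare, of which 7997 had a description that names a gene product. Levels are normalized log2 intensities, and a difference of 1 is a factor of 2. The descriptions are those of the array design, they often name a match in another species, and several probes can carry 1 description. Levels of different probes are not compared with each other. No gene position or sequence is given, since the probe accessions matched no entry of the gene table used here. Nipponbare was in Cy5 on control replicates 1 and 3 and P-def replicate 2, and in Cy3 on the others, so each change was fitted with a dye term. Changes are given as fitted log2 values ± SE with limma's adjusted p, over 3 samples in each group. The fitted change can therefore differ a little from the difference of the plain means. Between 89.8% and 99.5% of probes were well above background in the Nipponbare channel, whose median signal was 3.25 to 8.48 times the local background. Levels correlated between 0.950 and 0.975 over probes among the controls and between 0.963 and 0.979 among P-def samples. Correlations between samples of different conditions ran from 0.939 to 0.982, which overlaps the range within conditions.

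Replicate 2 of both conditions stood apart from the other arrays. In Cy3 their negative control spots were brighter than the local background by a factor of 5.06 (control replicate 2) and 4.80 (P-def replicate 2), against 1.19 to 2.86 on the other arrays. The log2 ratios of Cy5 over Cy3 on these 2 arrays correlated at 0.606 over probes, although the lines were in opposite dyes on them. A dye bias particular to replicate 2 enters the response of Nipponbare and that of 6-4 with opposite signs and cancels in their mean. The mean of both lines is therefore given beside some of the results as a second value, which was chosen after seeing the data. Root identity was checked with marker probes. Of 9 probes for the root proteins RCc2 and RCc3, 8 were well above background in all 6 Nipponbare channels. Their summed level was 15.65 to 16.02 in controls and 14.97 to 15.22 under P deficiency, and 2 of 8 tested were lowered. Green tissue markers (42 probes, 33 well above background throughout) summed to 15.32 to 15.55 in controls and 15.29 to 15.51 under P deficiency, with 0 of 35 called. Seed storage protein markers (11 probes, 7 well above background throughout) summed to 10.70 to 11.002 and 10.84 to 10.90, with 0 of 8 called. With the replicate number as a block 3 root markers were lowered, 1 green tissue marker was raised and 1 lowered, and no seed marker was called. Whether fewer cells of a type or less RNA per cell underlies any change cannot be told apart in whole roots, and the part of the lower root marker level in the results was not tested.

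Phosphorus deficiency raised 113 probes in Nipponbare roots, 0.576% of those tested, and lowered 45, or 0.23% (0.806% in either direction), in limma at an adjusted p under 0.05. Probes for an acid phosphatase, a galactolipid synthase, a phosphate transporter and flavonoid enzymes were among the largest increases of described probes. Probes for the dehydration-responsive protein RD22, germin-like proteins and the root protein RCc2 were among the largest decreases. The raised probes changed by a median of 1.19 (log2), from 0.69 to 3.31, and 84 of them rose at least 2-fold and 13 at least 4-fold. The lowered ones changed by a median of -1.05, from -0.64 to -2.35, with 26 lowered at least 2-fold and 2 at least 4-fold. In all 158 the 3 P-def values lay apart from the 3 control values, as they did in 17.4% of all tested probes. Separate groups described below for a called probe are therefore no further result.

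**Figure D1:**
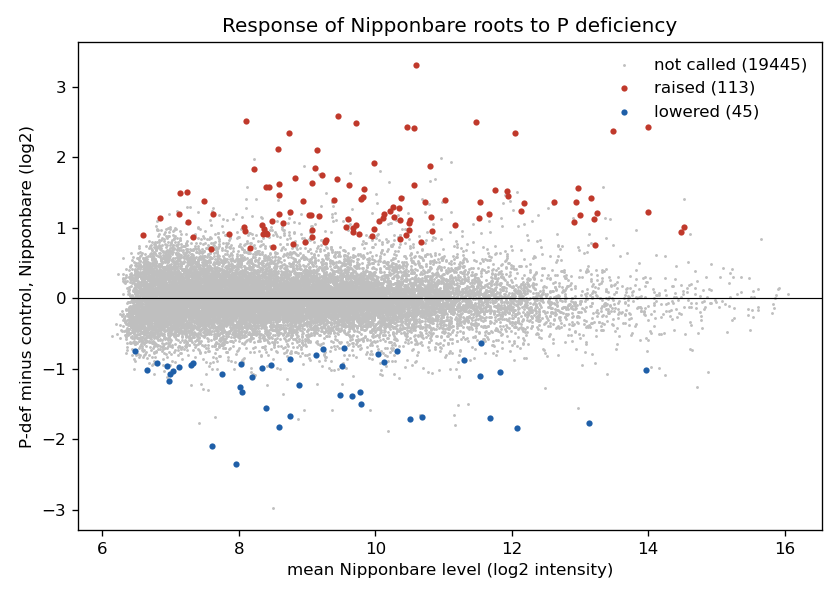
Change of each of the 19603 probes between P-def and control (vertical axis, log2) against its mean level in the Nipponbare channel (horizontal axis, log2 intensity). Red points are the 113 raised and blue points the 45 lowered probes, which spread over dim and bright levels, and grey points were not called.

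By the correlation of their deviations the samples were taken to pair by replicate number. With the replicate number as a block the counts were 1290 raised (6.58%) and 1082 lowered (5.52%), including all 158. Every blocked count of a list given below is to be read beside these shares of all probes. Counts of a list without the block are to be read beside 0.576% raised and 0.23% lowered. Within the 4 arrays read with software version 7.1, which hold replicates 1 and 2, no probe was called by limma (1145 had an unadjusted p under 0.05), and all 158 kept their direction. With the version as a batch 532 were raised and 316 lowered. Replicate 3 alone was read with version 8.1, which leaves 1 array a condition there. Every array moved the counts when left out. They were 17 raised and 3 lowered without control replicate 1, 11 and 3 without control replicate 2, and 65 and 20 without control replicate 3. Without P-def replicates 1, 2 and 3 in turn they were 19 and 6, 30 and 7, and 36 and 6. In the mean of both lines all 113 raised probes were positive and 99 of them called, and all 45 lowered ones were negative and 27 called. Named probes called in Nipponbare but not in that mean follow, with its log2 value. Raised ones were AK070931 (0.52), AK109954 (0.62) and AK109458 (0.55). Lowered ones were AK099555 (-0.48), AK068064 (-0.62), AK104936 (-0.88), AK103007 (-0.62), AK105226 (-0.49), AK111541 (-0.46), AK110420 (-0.45) and AK066537 (-0.50). The Nipponbare values that chose the called probes are part of that mean, so its sign is no separate test of them.

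**Figure D2:**
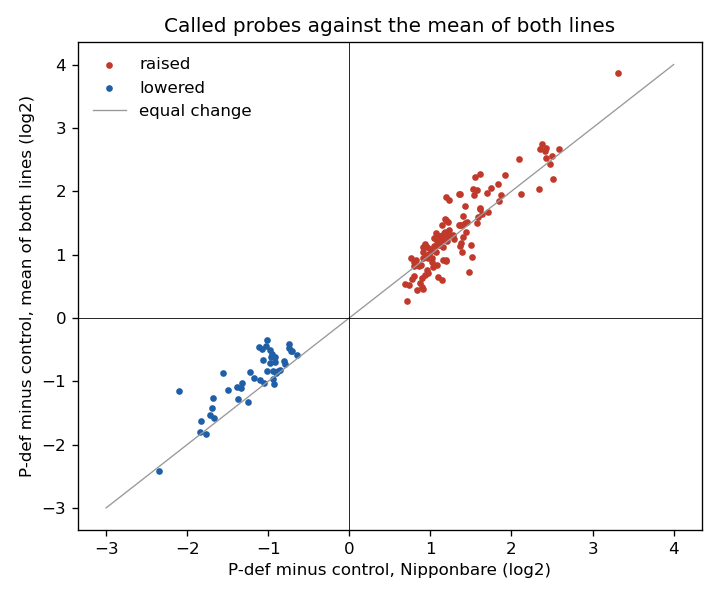
Change of the 158 called probes in Nipponbare (horizontal axis, log2) against the mean of both lines (vertical axis, log2), with raised probes in red, lowered ones in blue and a line of equal change. Raised points lie above 0 and lowered points below 0 on both axes, and the Nipponbare values enter both axes. The medians in the mean of both lines were 1.29 for raised and -0.86 for lowered probes.

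Of the acid phosphatase and RNase probes, 3 for purple acid phosphatases rose. Purple acid phosphatases are metal-containing enzymes that free phosphate from organic esters. The probe AK110804, described as an Arabidopsis purple acid phosphatase, read 8.44, 8.34 and 8.55 in control replicates 1 to 3 and 11.07, 10.94 and 10.97 in P-def replicates 1 to 3. The 2 groups lay far apart with little spread within them, and the fitted change was 2.48 ± 0.21 (adjusted p = 0.000565), or 5.57-fold. Its change in the mean of both lines was 2.44. PAP22 (AK073222, Arabidopsis) read 11.64, 11.13 and 10.98 in controls and 12.74, 12.96 and 12.24 under P deficiency, a change of 1.45 ± 0.20 (adjusted p = 0.00543). A sweet potato purple acid phosphatase match (AK071643) went from 12.77, 12.48 and 12.16 to 13.96, 14.01 and 13.61, a change of 1.42 ± 0.19 (adjusted p = 0.00439). Every P-def value of both probes exceeded every control value.

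These were the only called members among the 27 tested acid phosphatase and RNase probes, so 3 rose and none fell, at a list median of 0.11 against -0.02 over all probes. With the replicate block 6 rose and 1 fell. Among those called with the block, a second Arabidopsis purple acid phosphatase match (AK070684) changed by 0.90 ± 0.23 (adjusted p = 0.11 without the block and 0.0108 with it). The Arabidopsis ribonuclease RNS2 match (AK105061), an RNA-degrading enzyme, changed by 0.54 ± 0.15 (adjusted p = 0.137 without the block and 0.0123 with it). PAP20 (AK107301) was at 0.49 ± 0.18 (adjusted p = 0.234 without the block and 0.0212 with it), and a bean defence-associated acid phosphatase match (AK064745) at -1.01 ± 0.45 (adjusted p = 0.329 without the block and 0.0387 with it). The control value of AK064745 in replicate 2 was 8.89, against 7.32 and 7.87 in the other controls, and its mean over both lines was -0.43. The other probes of the list lay between -0.51 (AK061635, a rice acid phosphatase) and 0.60 (AK066273, a purple acid phosphatase), and none of them was called with or without the block.

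Outside that list, 2 of the largest increases were those of a nuclease and a nucleotide phosphatase. Nuclease I (AK059608, barley), which cuts nucleic acids, read 8.52, 7.38 and 8.21 in controls and 9.45, 9.91 and 9.43 under P deficiency, a change of 1.70 ± 0.26 (adjusted p = 0.00938). The lowest value was that of control replicate 2, and the groups lay apart. Diphosphonucleotide phosphatase 1 of lupin (AK065128), which releases phosphate from nucleotides and related compounds, went from 8.40, 7.92 and 8.56 to 9.86, 9.74 and 9.98, a change of 1.64 ± 0.20 (adjusted p = 0.00354). A second ppd1 probe (AK101976) rose by 1.08, and a pair of lupin ppd4 metallophosphatase matches rose by 1.17 (AK073281) and 1.18 (AK106533). A soybean phytase match (AK072278), an enzyme that frees phosphate from phytate, rose by 1.09, and a tomato inositol monophosphatase match (AK071149) by 1.44. The last 5 of these were called but lie outside the rule for named probes. They were chosen for their values, and no count was made of the enzyme groups they belong to. The acid phosphatase and RNase list matched words in the descriptions, so it can miss related enzymes described in other words.

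Of 10 tested phosphate transport probes 1 rose and none fell, at a list median of 0.65, and with the replicate block 5 rose. The raised probe, AK109109, is described as a phosphate transporter of Catharanthus roseus. It read 8.60, 8.21 and 7.79 in controls and 10.34, 10.22 and 9.56 under P deficiency, a change of 1.84 ± 0.27 (adjusted p = 0.00816). The mean of both lines changed by 1.84. Each replicate 3 value was the lowest of its group, and the groups did not overlap.

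None of the other PHT1 probes was called without the block. A probe of rice high affinity phosphate transporter 11 (AK062362) read 11.82, 12.03 and 13.78 in controls and 13.93, 13.51 and 15.01 under P deficiency, a change of 1.57 ± 0.62 (adjusted p = 0.269 without the block and 0.0103 with it). Its replicate 3 stood higher than the others in both conditions, so that the groups overlapped. Pht1-2 (AK101380) went from 12.95, 12.52 and 12.98 to 13.81, 14.04 and 13.85, a change of 1.14 ± 0.32 (adjusted p = 0.143 without the block and 0.0168 with it). A second Pht1-2 probe (AK101170) went from 14.38, 14.12 and 13.99 to 15.07, 15.19 and 14.95, a change of 0.92 ± 0.20 (adjusted p = 0.0617 without the block and 0.0068 with it), with 1 P-def spot saturated. OsPT1 (AK063990) went from 12.95, 12.59 and 12.62 to 13.80, 13.39 and 13.46, a change of 0.91 ± 0.29 (adjusted p = 0.187 without the block and 0.0206 with it). The groups lay apart for the pair of Pht1-2 probes and for OsPT1, as they did in 17.4% of all tested probes.

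The remaining transport probes gave small values. PHO1 (AK100323), which loads phosphate into the xylem in Arabidopsis, read 12.46, 12.44 and 12.32 and 12.98, 12.63 and 12.70, a change of 0.40 ± 0.15 (adjusted p = 0.262). One more Pht1-2 probe (AK069054) was at -0.18 ± 0.33, and 2 probes of high affinity phosphate transporter 2 were at 0.07 ± 0.24 (AK108907) and 0.04 ± 0.13 (AK070341). An indica high affinity transporter (AK107027) was at -0.05 ± 0.13. Probes of 1 description thus differed, since Pht1-2 gave 1.14, 0.92 and -0.18, and near-identical transporter genes may share a probe. Both tested phosphate sensing probes match the SPX-type protein ids4 and neither was called. AK107245 read 11.54, 11.42 and 10.64 and 11.35, 11.36 and 11.31, a change of 0.10 ± 0.24 (adjusted p = 0.89), and AK067674 changed by -0.16 ± 0.21 (adjusted p = 0.766).

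**Figure D3:**
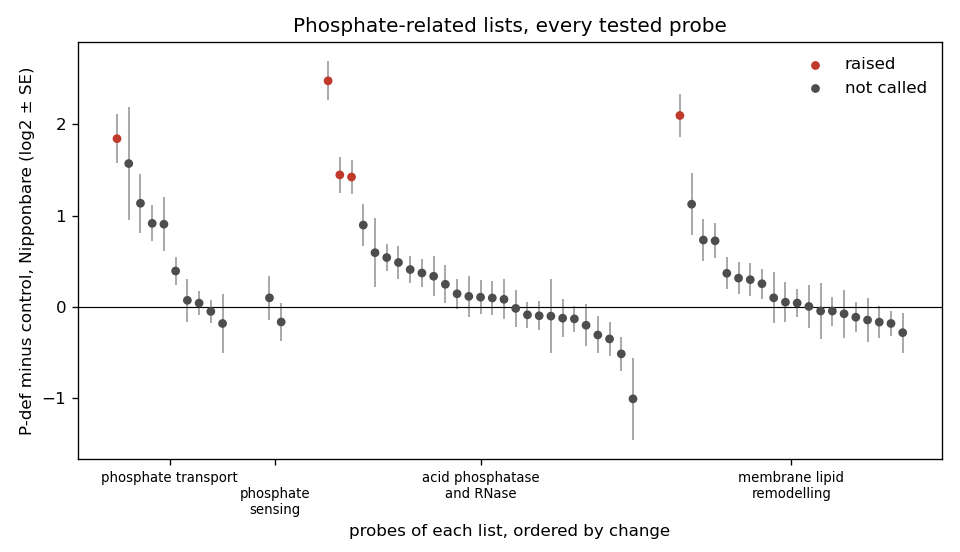
Change of every tested probe (log2, P-def minus control in Nipponbare, bars 1 SE) in the lists of phosphate transport, phosphate sensing, acid phosphatase and RNase, and membrane lipid remodelling, ordered by change within each list. The 5 red points were raised, 1 in phosphate transport, 3 in acid phosphatase and RNase and 1 in membrane lipid remodelling, and most grey points lie near 0.

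Membrane lipid genes showed 1 large increase. Monogalactosyldiacylglycerol synthase (AK064148, Arabidopsis match), which makes the galactolipid MGDG, read 8.46, 8.12 and 7.74 in controls and 10.45, 10.27 and 9.80 under P deficiency, a change of 2.10 ± 0.24 (adjusted p = 0.00262), or 4.28-fold. Replicate 3 was the lowest of each group, and the P-def values stayed above all controls. It was the 1 called of 20 tested membrane lipid remodelling probes, whose median was 0.05, and with the replicate block 4 rose. Those added were a phosphatidylglycerol specific phospholipase C (AK101291) at 1.13 ± 0.34 (adjusted p = 0.165 without the block and 0.0157 with it), a glycerophosphodiester phosphodiesterase (AK071836) at 0.73 ± 0.23 (adjusted p = 0.168 without the block and 0.0312 with it) and the digalactolipid synthase DGD2 (AK067931) at 0.73 ± 0.19 (adjusted p = 0.125 without the block and 0.00779 with it). The phospholipase C releases head groups of phospholipids, the phosphodiesterase cleaves glycerophosphodiesters, and DGD2 adds a further galactose to MGDG. A second DGD2 probe (AK102684) was at -0.16 ± 0.17, and the 15 other probes, most of them phospholipase D, lay between -0.28 (AK100579) and 0.37 (AK101065). Among the latter was a second glycerophosphodiester phosphodiesterase probe of the same description (AK066596), at 0.05 ± 0.22 (adjusted p = 0.941).

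The largest increases among described probes also covered a lectin, flavonoid enzymes and stress proteins. A fatty acid CoA ligase match of the fungus Glomus intraradices (AK106436) read 8.06, 7.42 and 9.04 in controls and 10.85, 9.998 and 11.34 under P deficiency, a change of 2.59 ± 0.51 (adjusted p = 0.0401) with a wide spread in both groups. A rice lectin (AK103206), a sugar-binding protein, went from 9.45, 9.26 and 9.002 to 11.35, 11.75 and 11.95, a change of 2.43 ± 0.36 (adjusted p = 0.0086). The groups of the lectin lay far apart. A barley amino acid selective channel (AK101693) went from 9.77, 9.54 and 10.29 to 11.74, 11.39 and 12.09, a change of 1.87 ± 0.24 (adjusted p = 0.00412). The heat shock protein HSP101 (AK105433), a chaperone that takes aggregates apart, rose by 1.84 ± 0.20 (adjusted p = 0.00262) from 7.07, 7.60 and 7.11 to 9.07, 9.33 and 9.18. The soybean stress-induced gmsti match (AK108550) rose by 1.58 ± 0.19 (adjusted p = 0.00354) and a taxane hydroxylase match of yew (AK109627) by 1.57 ± 0.32 (adjusted p = 0.0476).

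**Figure D4:**
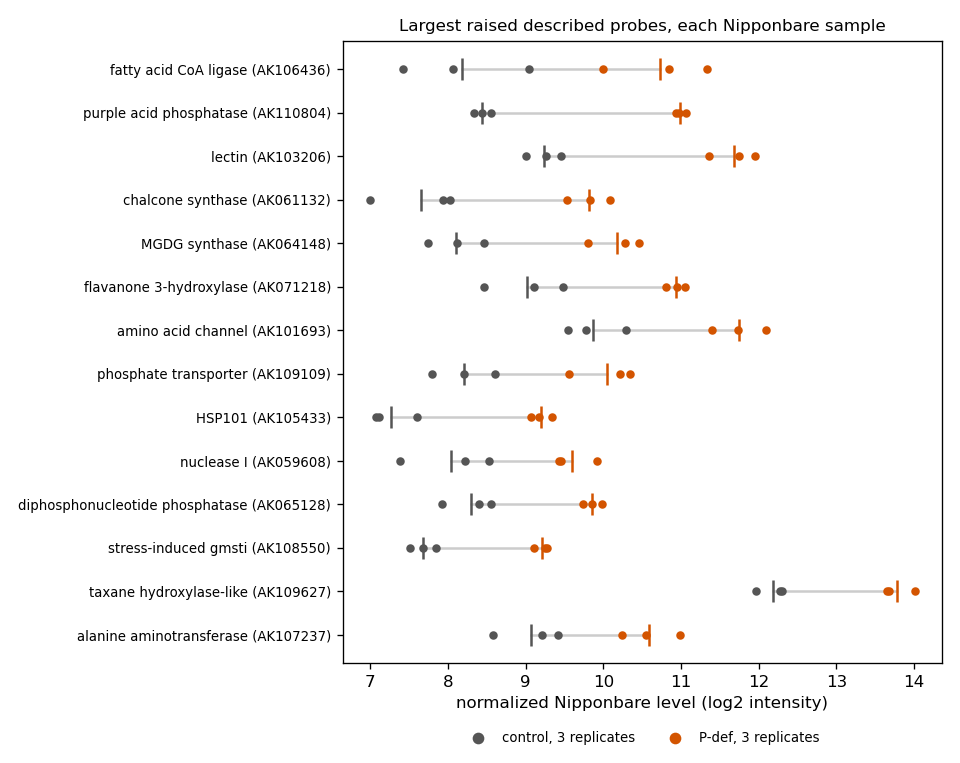
Normalized Nipponbare level (horizontal axis, log2 intensity) of the 14 largest raised described probes in each of the 3 control (grey) and 3 P-def (orange) samples, with a tick at each group mean. All P-def points lie to the right of all control points of the same probe, as the naming rule requires.

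Flavonoid synthesis was represented by 2 raised probes of 115 tested in the flavonoid and phenylpropanoid list, whose median was -0.07. Chalcone synthase (AK061132, Perilla), the first enzyme of the flavonoid pathway, read 7.94, 6.99 and 8.02 in controls and 10.09, 9.83 and 9.53 under P deficiency, a change of 2.34 ± 0.35 (adjusted p = 0.00927). Flavanone 3-hydroxylase (AK071218, barley), a later step, went from 9.11, 8.47 and 9.48 to 10.80, 10.94 and 11.05, a change of 1.92 ± 0.24 (adjusted p = 0.00412). Both groups lay apart for each enzyme, and control replicate 2 was the lowest value of each. With the block 11 probes of the list rose and 11 fell.

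In carbon and nitrogen metabolism the changes went both ways. Phosphoenolpyruvate carboxylase kinase (AK066885, sorghum), which activates an enzyme of organic acid synthesis, read 10.77, 10.99 and 10.78 in controls and 12.15, 12.04 and 12.49 under P deficiency, a change of 1.37 ± 0.17 (adjusted p = 0.00412). In the same list of 97 glycolysis and organic acid probes (median 0.00), hexokinase 1 of spinach (AK067988) changed by -0.86 ± 0.16 (adjusted p = 0.036) and nodule-enhanced malate dehydrogenase of alfalfa (AK068064) by -0.96 ± 0.14 (adjusted p = 0.00892). Alanine aminotransferase (AK107237), which moves amino groups between alanine and glutamate, went from 9.21, 8.58 and 9.41 to 10.25, 10.54 and 10.98, a change of 1.54 ± 0.26 (adjusted p = 0.0179). It and an ammonium transporter match of Lotus (AK108711, 0.91 ± 0.17 (adjusted p = 0.0368)) were the 2 raised of 60 nitrogen probes. Among 115 sucrose and starch probes, sucrose-phosphatase (AK071525) rose by 1.19 and soluble starch synthase (AK109458) by 0.87, while trehalose-6-phosphate phosphatase (AK103391) changed by -0.94. All of these had separate groups, as every called probe did. With the block 11 probes rose and 3 fell in the glycolysis list, 7 and 6 in the nitrogen list, and 11 and 7 in the sucrose and starch list.

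In the other families 1 to 3 probes were called in each, where 0.576% of all probes were raised and 0.23% lowered. Of 118 probes in the cytochrome P450 list 3 rose: a Matthiola match (AK072715, 1.53 ± 0.22 (adjusted p = 0.00608)), CYP71D4 of potato (AK111441, 1.12 ± 0.18 (adjusted p = 0.0153)) and a fatty acid hydroxylase of tobacco (AK070931, 0.73 ± 0.14 (adjusted p = 0.0349)). The list was matched by words in the descriptions, and the raised taxane hydroxylase match AK109627 is not in it. Of 66 ABC transporter probes 2 rose, at 1.37 ± 0.28 (adjusted p = 0.0485) for AK067653 and 1.36 ± 0.17 (adjusted p = 0.00412) for the P-glycoprotein match AK107554. A glutathione S-transferase of maize (AK064627) rose by 1.40 ± 0.19 (adjusted p = 0.00519), and a glutathione synthetase match (AK099555) changed by -0.75 ± 0.14 (adjusted p = 0.0361). The rice peroxidase POX22.3 (AK073202) rose by 1.42 ± 0.18 (adjusted p = 0.00419). A heat shock protein match of Arabidopsis (AK101824) rose by 1.06, which with HSP101 makes 2 of 93 in that list. Among regulators, the bZIP factor ABI5 of barley (AK105312), which acts in abscisic acid signalling, went from 9.57, 9.85 and 9.46 to 10.99, 10.87 and 10.85, a change of 1.29 ± 0.17 (adjusted p = 0.00463). A MYB factor (AK109620) rose by 1.37, the GH3 protein of tobacco (AK101193), of a family that conjugates auxin, by 1.16, a cytokinin-regulated kinase (AK109954) by 0.77 and an F-box protein (AK068929) by 1.19. A nematode resistance gene candidate (AK071605) rose by 0.93, while the immune receptor MLA13 of barley (AK101496) changed by -0.79. The block gave more calls in each of these lists, as it did over all probes (6.58% raised and 5.52% lowered). Raised and lowered were 19 and 5 of 118 cytochrome P450 probes, 7 and 4 of 66 ABC transporters and 9 and 3 of 93 heat shock proteins. They were 4 and 4 of 49 in the glutathione list and 6 and 9 of 80 peroxidases. For regulators they were 6 and 2 of 32 bZIP, 3 and 2 of 54 MYB, 8 and 7 of 81 auxin and 3 and 1 of 32 cytokinin probes. The ubiquitin and proteasome list gave 6 and 3 of 179, and the NBS-LRR list 6 and 19 of 145.

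The largest decrease among called, described probes was that of RD22 (AK105947, peach), a dehydration-responsive protein of the cell wall. It read 8.64, 9.35 and 9.55 in controls and 7.18, 6.63 and 6.40 under P deficiency, a change of -2.35 ± 0.33 (adjusted p = 0.00589), or 5.09-fold lower. All P-def values lay below the lowest control. Of 32 tested abscisic acid and dehydration probes it was the 1 called without the block, and the list median was 0.06. With the block 6 probes of the list rose and 6 fell. Germin-like proteins are secreted cell wall glycoproteins, and 2 of 14 fell, at a list median of -0.41 (2 rose and 5 fell with the block). GER2 (AK059781) went from 13.17, 12.76 and 13.18 to 11.55, 11.13 and 10.71, a change of -1.84 ± 0.26 (adjusted p = 0.00579). GER1 (AK059338) went from 9.49, 9.14 and 10.21 to 7.70, 7.89 and 8.12, a change of -1.67 ± 0.29 (adjusted p = 0.0241). A second GER2 probe (AK059812), outside the naming rule, was at -1.76 and was not called (adjusted p = 0.0654), and another probe of the family (AK108987, barrel medic) was at 1.34.

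The root protein RCc2 was read by 4 tested probes. AK062911 read 14.01, 13.63 and 14.42 in controls and 12.66, 12.03 and 12.04 under P deficiency, a change of -1.77 ± 0.36 (adjusted p = 0.0448), and AK063090 read 9.04, 9.72 and 9.50 and 8.59, 8.15 and 8.31, a change of -1.22 ± 0.16 (adjusted p = 0.00489). The pair not called were at 0.08 (AK062848) and -0.09 (AK108560). Both hsr203J probes named by the rule, tobacco genes known from the hypersensitive response, fell: AK061124 from 12.63, 12.30 and 12.76 to 10.87, 10.99 and 10.54 (-1.70 ± 0.22 (adjusted p = 0.00439)) and AK059449 from 10.51, 10.12 and 10.58 to 8.67, 9.30 and 8.80 (-1.39 ± 0.18 (adjusted p = 0.00439)). An hsr203J homolog of pea (AK108696), chosen after its value was seen, rose by 0.72 in Nipponbare and was at 0.27 in the mean of both lines.

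Further lowered probes were a wheat peptidylprolyl isomerase (AK064825, -1.68 ± 0.27 (adjusted p = 0.013)), a protein-folding enzyme, and a translation initiation factor 2B match (AK100837, -1.49 ± 0.22 (adjusted p = 0.00826)). The anionic peroxidase match of poplar (AK104936) changed by -1.55 ± 0.29 (adjusted p = 0.0338), and the MADS box protein 2 match of maize (AK102927), a transcription factor, by -1.37 ± 0.27 (adjusted p = 0.0432). The probe AK111610 changed by -1.32 ± 0.26 (adjusted p = 0.0412). The words of the ribosomal protein list caught it, but its description is the Arabidopsis immune receptor RPS2, and no other probe of that list was called without the block. With the block 3 of its 135 probes rose and 6 fell, and the list median was -0.18. Receptor-like kinases had 3 lowered of 292, against 0.23% lowered over all probes, and with the block 12 rose and 31 fell. The 3 were wall-associated kinase 2 (AK111541, -1.12 ± 0.22 (adjusted p = 0.0447)), RK20-1 of bean (AK110420, -1.03 ± 0.20 (adjusted p = 0.0368)) and RKF1 (AK066537, -0.98 ± 0.20 (adjusted p = 0.0448)). In the mean of both lines the wall-associated kinase, RK20-1 and RKF1 were at -0.46, -0.45 and -0.50, closer to 0 than in Nipponbare, and the zinc finger protein ZPT2-14 of petunia (AK105226, -1.07 ± 0.22 (adjusted p = 0.0485)) was at -0.49. The sulphate transporter Sultr1-1 (AK103007) went from 7.78, 7.76 and 7.78 to 6.77, 7.08 and 6.78, a change of -0.92 ± 0.16 (adjusted p = 0.0206), the 1 called of 19 sulphate probes (3 fell and none rose with the block).

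**Figure D5:**
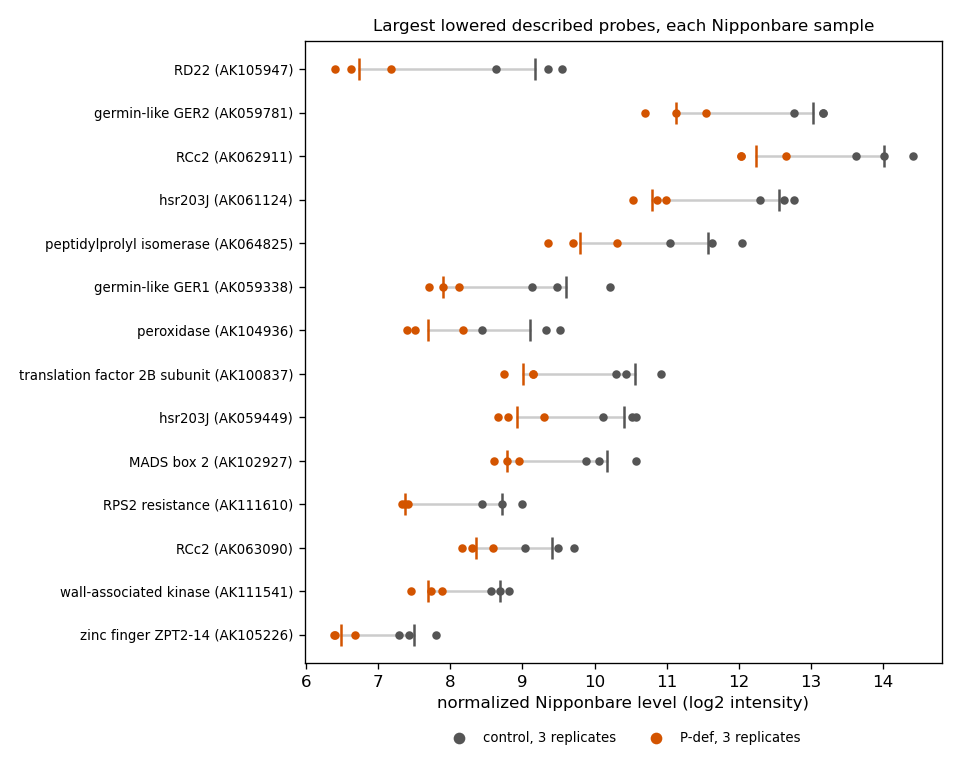
Normalized Nipponbare level (horizontal axis, log2 intensity) of the 14 largest lowered described probes in each of the 3 control (grey) and 3 P-def (orange) samples, with a tick at each group mean. The P-def points lie to the left of the control points of the same probe, as the naming rule requires, from RD22 at the top to ZPT2-14.

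Of 47 lists, 23 held at least 1 called probe. From the lists with none the probe with the smallest p is given. The iron transporter OsIRT1 (AK107681) read 12.16, 11.83 and 12.38 in controls and 9.50, 11.43 and 9.68 under P deficiency. P-def replicate 2 lay close to the controls, and the change was -1.80 ± 0.45 (adjusted p = 0.103 without the block and 0.0172 with it). An aquaporin-family probe (AK105483) was at 1.17 ± 0.24 (adjusted p = 0.0517 without the block and 0.00267 with it) and the potassium transporter HAK1 (AK106353) at 1.41 ± 0.40 (adjusted p = 0.139 without the block and 0.00653 with it). Kaurene synthase A (AK100333), of gibberellin and diterpenoid synthesis, was at 1.11 ± 0.35 (adjusted p = 0.18 without the block and 0.0268 with it), and a NAC factor (AK073539) at 1.15 ± 0.26 (adjusted p = 0.0706 without the block and 0.00503 with it). In cell wall lists an expansin-like protein (AK072728) was at 0.72 ± 0.16 (adjusted p = 0.0697 without the block and 0.00623 with it), the endoglucanase Cel1 (AK070408) at -0.82 ± 0.20 (adjusted p = 0.0974 without the block and 0.0146 with it), a pectin methylesterase match (AK106797) at 0.68 ± 0.18 (adjusted p = 0.116 without the block and 0.0421 with it) and a xyloglucan endotransglycosylase match (AK060654) at -0.59 ± 0.17 (adjusted p = 0.16 without the block and 0.0346 with it). The pectin methylesterase match read 6.74, 5.94 and 6.66 in controls and 6.69, 7.54 and 6.79 under P deficiency. Its mean over both lines changed by 0.33. Of the 37 cellulose and wall synthesis probes 9 were positive, against 9395 of all 19603, at a median of -0.20. With the block 5 of them fell and none rose, against 5.52% lowered over all probes.

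Among signalling lists the jasmonic acid methyltransferase (AK068748), also in the list of pathogenesis-related proteins, was at 0.85 ± 0.19 (adjusted p = 0.0691 without the block and 0.0045 with it). The 1-aminocyclopropane-1-carboxylate synthase ACS1 (AK065212), of ethylene synthesis, was at 0.62 ± 0.19 (adjusted p = 0.161 without the block and 0.00916 with it), a calmodulin-binding protein (AK068628) at -0.74 ± 0.18 (adjusted p = 0.0919 without the block and 0.00474 with it) and WRKY54 (AK110900) at -0.83 ± 0.25 (adjusted p = 0.165 without the block and 0.00862 with it). An AP2 factor (AK062612) was at 0.97 ± 0.22 (adjusted p = 0.0724 without the block and 0.0157 with it), bHLH087 (AK100208) at 0.99 ± 0.25 (adjusted p = 0.108 without the block and 0.0259 with it) and the KNOX factor HOS66 (AK060316) at -0.69 ± 0.17 (adjusted p = 0.101 without the block and 0.0125 with it). In AK062612 and AK100208 control replicate 2 was the lowest value and P-def replicate 2 the highest. Each was well above background in 2 of 3 controls. Their means over both lines changed by 0.56 and 0.43, and that of HOS66 by -0.44. The vacuolar pyrophosphatase (AK066933), a proton pump, was at -0.74 ± 0.24 (adjusted p = 0.183 without the block and 0.0333 with it) and histone H2A (AK058540) at 0.54 ± 0.20 (adjusted p = 0.243 without the block and 0.0341 with it). Without a call in either fit were OsMT-1 metallothionein (AK103162, 0.84 ± 0.59 (adjusted p = 0.544)), alcohol dehydrogenase 2 (AK102799, 0.53 ± 0.20 (adjusted p = 0.254)) and a lipid transfer protein (AK063683, 0.91 ± 0.31 (adjusted p = 0.204)). The lipid transfer protein was likewise lowest in control replicate 2 and highest in P-def replicate 2, and its mean over both lines changed by 0.53. OsMT-1 read 15.07, 15.15 and 15.17 in controls and 16.42, 15.14 and 16.93 under P deficiency, with spots saturated in 1 control and 2 P-def samples, and all 7 metallothionein probes were positive (9395 of all 19603 were) at a median of 0.29. The list's median change varied between the 3 P-def samples with an SD of 0.56, more than that median.

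Some of the largest changes came from probes whose description names no product, singled out after their values were seen. AK108539 read 8.94, 8.98 and 8.83 in controls and 12.34, 12.18 and 12.35 under P deficiency, the largest increase of all tested probes at 3.31 ± 0.34 (adjusted p = 0.00178), or 9.94-fold. AK063714 rose by 2.51, AK100788 by 2.50, AK063904 by 2.43, AK063600 by 2.41, AK061237 by 2.37 and AK063180 by 2.35. AK063904 went from 12.65, 12.80 and 12.81 to 15.12, 14.90 and 15.74. In the other direction AK065818 changed by -2.10 in Nipponbare but by -1.16 in the mean of both lines, and AK105201 by -1.83 and -1.63.

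Whether a response was particular to Nipponbare was asked with the difference of the response between the lines. In 6-4, which was fitted with coefficients of its own, 212 probes rose and 53 fell, 1.35% of those tested. The difference passed at 5398 probes (27.5%), 2731 higher and 2667 lower in 6-4, among them 56 of the 113 raised and 26 of the 45 lowered probes. In this design that difference and a dye bias particular to replicate 2 cannot be told apart, so no response is called particular to Nipponbare. Among the largest differences, OsPRP1 (AK104765), a proline-rich protein, read 6.52, 7.80 and 6.49 in controls and 6.50, 6.16 and 6.50 under P deficiency, and the actin-related protein ARP6 (AK110209) read 7.15, 5.85 and 6.87 and 7.40, 8.16 and 7.17. In both, control replicate 2 lay far from the other controls. Their mean over both lines changed by -0.00 and 0.39.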

How the data were processed

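The study measured RNA of Nipponbare and 6-4 roots on 6 two-colour Agilent arrays, and groups came from the labels. Spot intensity in each dye, as a mean, with the median of the background around it, was quantified by the authors with Agilent Feature Extraction, version 7.1 for replicates 1 and 2 and 8.1 for replicate 3, per the file headers. The submitters' processing notes name 8.1 for P-def replicate 2. The deposited series table of line ratios, 6 columns, was not used.

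In R 4.3.3 with limma 3.58.1, background was corrected by normexp (offset 50), dyes by loess within arrays with control and flagged spots at weight 0, and arrays by Aquantile. Probes well above background in all 3 Nipponbare channels of at least 1 condition passed (20071), less 468 with flagged spots. The 12 channels were fitted with lmscFit (intraspot correlation 0.804 from 2000 probes), a dye term and eBayes, and p-values were Benjamini-Hochberg adjusted over 19603 probes, with a threshold of 0.05. The precision is limited by 3 samples a group. The fit was tested on simulated data.

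The members and lists were chosen with earlier results of these data known, and list words were corrected after descriptions had been read. Named probes were the 14 largest called, described, non-overlapping ones in each direction, up to 4 called members of each list or else the 1 with the smallest p, every tested member of the lists phosphate transport, phosphate sensing, acid phosphatase and RNase, and membrane lipid remodelling, and the 8 largest line differences in each direction. Deviations of same-numbered Nipponbare samples from their group means correlated at 0.556, 0.409 and 0.732, above 0.1. The numbers were therefore taken to pair the samples, and blocked values are given. Control replicate 2 with P-def replicate 1 also exceeded 0.1, at 0.252. Replicate 2 of both conditions shared bright Cy3 negative controls and replicate 3 of both the software version, and the source of the pairing was not tested. Alternatives covered the dye term, batch, block, background, normalization, filters and left-out arrays, 22 settings in all. The mean of both lines, the background the software used and within-array ratios alone were added after seeing the data.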

Additional observations from a re-analysis of the deposited data

Results flagged for a closer look

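A difference between the lines in their response to P deficiency passed limma's test for the probes given here, at adjusted p-values under 0.05. Each value is the 6-4 response minus the Nipponbare response in log2, and in this design it cannot be told apart from a dye bias particular to replicate 2. Among probes raised in Nipponbare, the response was larger in 6-4 for AK067653 (1.17), AK107554 (1.20), AK071643 (0.70), AK072715 (1.02), AK109627 (0.91), AK071218 (0.67), AK105433 (0.56), AK064148 (0.83), AK107237 (1.37), AK071605 (0.47), AK108711 (0.43) and AK071525 (0.72). It was smaller in 6-4 for AK101193 (-0.48), AK070931 (-0.42), AK109954 (-0.30), AK066885 (-0.46), AK109458 (-0.64) and AK068929 (-0.55). Among probes lowered in Nipponbare that passed this test, the value was positive for AK099555 (0.53), AK068064 (0.69), AK105226 (1.16), AK063090 (0.74), AK059449 (0.59), AK100837 (0.72), AK064825 (0.83), AK061124 (0.57), AK104936 (1.35), AK111610 (0.60), AK111541 (1.31), AK066537 (0.96), AK110420 (1.17) and AK103007 (0.59). The lowered probes AK105947 and AK062911, which did not pass, were both at -0.14. The Nipponbare change that chose the raised and lowered probes is subtracted in the value, so its sign is no separate result.

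Of named probes with no call in Nipponbare, the difference was positive for AK058502 (0.74), AK072150 (0.44), AK060874 (0.56), AK064745 (1.15), AK105483 (0.73), AK068628 (0.44), AK100333 (1.22), AK060316 (0.50), AK071836 (0.60), AK072121 (0.53), AK100579 (0.65), AK107245 (0.70), AK101170 (0.65) and AK107027 (0.27). It was negative for AK058604 (-0.94), AK109335 (-0.72), AK100363 (-0.45), AK062612 (-0.83), AK100208 (-1.12), AK063683 (-0.77), AK100975 (-0.86), AK069703 (-0.83), AK106797 (-0.71), AK070341 (-0.30) and AK106353 (-0.81). The largest differences among described probes, in each direction, were positive for AK065680 (2.41), AK105540 (1.84), AK102430 (1.79), AK063733 (1.69), AK104765 (1.69), AK067905 (1.66), AK103637 (1.65) and AK101040 (1.63) and negative for AK105590 (-1.84), AK110209 (-1.69), AK110290 (-1.66), AK110172 (-1.64), AK110164 (-1.54), AK066147 (-1.51), AK066302 (-1.40) and AK108887 (-1.39). Among these, 6-4 and Nipponbare differ most at AK065680, a tomato Cf-9 resistance gene match, whose Nipponbare values went from 9.44, 10.05 and 10.34 in controls to 6.997, 7.18 and 6.97 under P deficiency, a change of -2.97 ± 0.66 (adjusted p = 0.0707) that missed the threshold.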

How the results depend on the processing

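All 158 called probes kept their direction in each of the settings that tested them, and no probe kept its call in all of them, since the fit within version 7.1 called 0 (1145 at an unadjusted p under 0.05). From 113 raised and 45 lowered, the counts went to 63 and 19 in the 6 Nipponbare channels alone, 58 and 19 with Agilent's processed signals, 46 and 11 with median scaling, 532 and 316 with the version as a batch, 1290 and 1082 with the replicate block, and 217 and 103 in the mean of both lines. With no dye term 71 were lowered. Of the 131 probes named for the Nipponbare response the block ended no call and added 29, and of the 16 named for the line difference it ended 1, AK105590. Leaving out 1 array gave 11 to 65 raised and 3 to 20 lowered, with the fewest raised without control replicate 2. Lists with a called probe, 23 of 47, numbered 0 within version 7.1, 15 with median scaling, 40 with the batch, 45 with the block and 3 to 17 with 1 array left out. The 5398 line differences became 0 with no dye term by limma, 3283 with the block, 10996 within version 7.1, and 2317 to 8407 with 1 array left out. The cause of these shifts was not tested.

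Only probes that were not called changed sign, 26 of 75 named ones. The log2 values with changed sign were, in the mean of both lines AK058604 (-0.13), AK059757 (0.00203), AK106112 (0.0173), AK072150 (0.0976), AK100975 (-0.11), AK069703 (-0.12), AK100278 (-0.00791), AK065102 (0.0201), AK109315 (0.0411), AK072121 (0.0847), AK100579 (0.0425), AK108907 (-0.0242), AK070341 (-0.11) and AK107027 (0.0872). In the 6 Nipponbare channels alone they were AK109335 (0.0388), AK072150 (0.0142) and AK109315 (0.0533). With quantile normalization they were AK109335 (0.0274). With median scaling they were AK109335 (0.00959). Within software version 7.1 they were AK069355 (0.00108), AK106112 (0.0425), AK100278 (-0.0304), AK069519 (0.0158), AK109315 (0.0514), AK064924 (0.00124) and AK107245 (-0.13). With no dye term they were AK100278 (-0.0167), AK109315 (0.0317), AK108907 (-0.0696) and AK107027 (0.0101). Without 1 array in turn the values crossed 0 for AK066719 (-0.19 to 0.25), AK103273 (-0.0156 to 0.26), AK060200 (-0.0901 to 0.36), AK109335 (-0.0866 to 0.0709), AK106112 (-0.57 to 0.30), AK072150 (-0.34 to 0.0673), AK110433 (-0.16 to 0.40), AK066596 (-0.10 to 0.21), AK100278 (-0.21 to 0.21), AK069519 (-0.34 to 0.31), AK065102 (-0.11 to 0.00487), AK109315 (-0.35 to 0.0881), AK066556 (-0.31 to 0.0692), AK107245 (-0.15 to 0.29), AK108907 (-0.11 to 0.27), AK070341 (-0.0459 to 0.0992) and AK069054 (-0.52 to 0.13). Signal over background limits dim probes, and arrays of 3 a group limit small changes.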
